A study of Drosophila melanogaster with 2 samples.

Results

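The genes described here are 8 core genes of the Notch pathway: the receptor Notch (N), its ligands Delta (Dl) and Serrate (Ser), and the regulators numb, Hairless (H), Suppressor of Hairless (Su(H)), neuralized (neur) and mastermind (mam). They were taken by name, and each locus was the gene body with 10 kb on each side. Together these loci held 31 of the 8309 peak summits that a chromatin immunoprecipitation sequencing experiment gave for the POU-domain transcription factor vvl (ventral veins lacking). All 8 are among the 13945 protein-coding genes on the 6 chromosome arms that served as background.

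The experiment mapped vvl fused to eGFP in whole Drosophila melanogaster embryos aged 0 to 24 h, with an antibody to GFP. There was 1 group of 2 biological replicates from the strain vvl-GFP, in which a transgene insertion expresses the fusion. A control experiment that the labels point to was not used here. The values are sums over all cell types and stages of the embryo, the labels name no promoter that limits the fusion to a tissue, and peak lists hold no marker values against which the tissue could be checked.

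Notch is a transmembrane receptor that Delta and Serrate on a neighbouring cell activate. Activation cuts the receptor, and its intracellular domain joins Su(H), a DNA-binding protein, and mastermind, a coactivator, on target genes. Hairless holds Su(H) in a repressing complex, numb lowers receptor activity in 1 daughter of an asymmetric cell division, and neuralized is a ubiquitin ligase that drives the endocytosis of ligands. In the embryo the pathway is known for selecting neural precursors from the ectoderm, and in the trachea for selecting tip and fusion cells.

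Of the 31 summits, 8 are shown with 100 bp on each side, on the plus strand of dm6, from the Release 6 genome. They were chosen because they are the highest-signal summits of N, numb, neur and Su(H), the promoter summit of N, both summits of Dl and the summit of N that carries the octamer. Capitals mark every match, on either strand, to the POU octamer ATGCAAAT, its relatives ATGCTAAT and ATGCATAT, its core TGCAAAT, the Su(H) words GTGGGAA and GTGAGAA, the homeodomain word TAATTA, and the promoter words TATCGATA, GGTCACAC and GAGAGAG. A match on the minus strand is printed as its reverse complement, so that the octamer appears as its other strand in the windows of N and Dl.
N, intron, octamer, chrX:3157164-3157364: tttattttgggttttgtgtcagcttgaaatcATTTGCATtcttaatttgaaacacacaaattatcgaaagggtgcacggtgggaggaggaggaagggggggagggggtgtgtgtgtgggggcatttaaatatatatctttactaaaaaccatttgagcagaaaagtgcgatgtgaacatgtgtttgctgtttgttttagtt
N, intron, highest signal, chrX:3162437-3162637: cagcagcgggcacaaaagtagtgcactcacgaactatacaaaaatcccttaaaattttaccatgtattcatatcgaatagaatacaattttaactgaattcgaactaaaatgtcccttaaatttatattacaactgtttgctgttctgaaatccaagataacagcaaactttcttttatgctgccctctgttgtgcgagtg
N, promoter, chrX:3134669-3134869: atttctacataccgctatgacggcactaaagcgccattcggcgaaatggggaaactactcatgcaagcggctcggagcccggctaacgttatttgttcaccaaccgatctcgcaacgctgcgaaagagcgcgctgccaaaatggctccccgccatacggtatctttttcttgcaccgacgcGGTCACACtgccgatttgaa
Dl, intron, octamer, chr3R:19322475-19322675: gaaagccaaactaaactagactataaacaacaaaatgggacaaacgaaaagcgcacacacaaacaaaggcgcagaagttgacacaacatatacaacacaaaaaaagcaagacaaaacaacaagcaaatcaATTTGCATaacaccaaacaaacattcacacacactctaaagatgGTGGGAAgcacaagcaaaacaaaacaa
Dl, intron, ATGCTAAT, chr3R:19321573-19321773: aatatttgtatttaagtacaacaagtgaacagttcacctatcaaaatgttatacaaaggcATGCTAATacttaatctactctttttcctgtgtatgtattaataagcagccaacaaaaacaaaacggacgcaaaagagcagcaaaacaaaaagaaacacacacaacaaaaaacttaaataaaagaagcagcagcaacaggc
numb, inner promoter, chr2L:9449469-9449669: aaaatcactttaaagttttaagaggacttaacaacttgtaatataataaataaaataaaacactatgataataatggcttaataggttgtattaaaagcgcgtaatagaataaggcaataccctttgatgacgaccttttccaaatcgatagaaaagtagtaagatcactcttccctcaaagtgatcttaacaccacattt
Su(H), promoter, chr2L:15039346-15039546: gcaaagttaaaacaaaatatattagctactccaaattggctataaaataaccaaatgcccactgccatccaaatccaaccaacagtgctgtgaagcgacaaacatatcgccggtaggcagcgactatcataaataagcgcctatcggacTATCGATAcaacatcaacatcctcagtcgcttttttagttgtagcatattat
neur, intron, highest signal, chr3R:9031932-9032132: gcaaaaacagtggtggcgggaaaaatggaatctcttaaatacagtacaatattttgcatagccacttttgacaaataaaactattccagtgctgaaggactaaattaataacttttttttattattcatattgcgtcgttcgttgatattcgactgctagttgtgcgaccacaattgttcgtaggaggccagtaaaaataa

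The windows of highest signal at N, numb and neur held none of these words, whereas that of mam, which is not shown, held the octamer. Positions of words are given from the summit to the word's centre, positive toward higher coordinates. The octamer of N was centred at -65 bp and that of Dl at 34 bp. In the same Dl window the Su(H) word GTGGGAA was centred at 77 bp, and in the other Dl window ATGCTAAT was centred at -36 bp. The N promoter held GGTCACAC, the word bound by the promoter factor M1BP, at 85 bp. The Su(H) promoter held TATCGATA, the DNA replication-related element, at 53 bp. A match is a stretch of letters and not a measured site.

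Summits were unevenly spread over the loci. In the conservative list, which the authors made from both replicates, mam had 12 summits, neur 6, N 5, numb 4, Dl 2, H and Su(H) 1 each, and Ser 0. The list of replicate 1 gave 15 at mam, 7 at neur, 7 at N, 5 at numb, 5 at Dl, 3 at H, 2 at Su(H) and 1 at Ser. The list of replicate 2 gave 10, 5, 5, 3, 2, 1, 1 and 0 at the same genes in this order. The replicates thus placed the genes in the same order apart from ties: N and neur had equal counts in each replicate, numb and Dl in replicate 1, and H and Su(H) in replicate 2. All 8 loci had a summit in replicate 1, against 73.9% of protein-coding genes, and 7 of 8 had one in replicate 2 and in the conservative list, against 73.6% and 74%. A count of 7 of 8 is near that background, and with 1 group no test between conditions was possible.

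**Figure D1:**
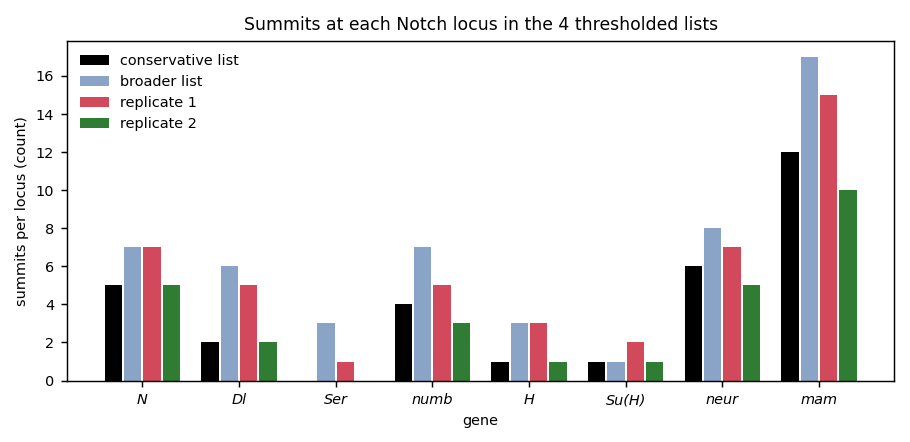
Number of peak summits at each Notch locus (gene body with 10 kb on each side) in the conservative list, the broader list and the list of each replicate. The bars start at 0 and are single counts without error bars; mam has the highest bars in every list, from 10 to 17, and Ser has none in the conservative list or in replicate 2, and the single broader-list summit of Su(H) is not the conservative one.

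The windows differed in length, from 23.85 kb at Su(H) to 89.15 kb at mam, and a longer window can hold more summits. Per 10 kb of window the conservative list gave 1.53 summits at neur, 1.35 at mam, 0.872 at N, 0.856 at numb, 0.46 at Dl, 0.419 at Su(H), 0.371 at H and 0 at Ser. The median of the 8 genes was 0.658 per 10 kb, and that of all protein-coding genes was 0.756. Among genes with a window length within 10% of its own, mam was matched or exceeded by 8.99% of 89 genes and neur by 20.2% of 465. For N the share was 39.7% of 224 genes, for numb 47.6% of 292, for Dl 72.8% of 349, for Su(H) 78.6% of 6435 and for H 83.8% of 1931. By this measure mam and neur were toward the upper end of genes of their length, N and numb near the middle, and Dl, Su(H), H and Ser toward the lower end.

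**Figure D2:**
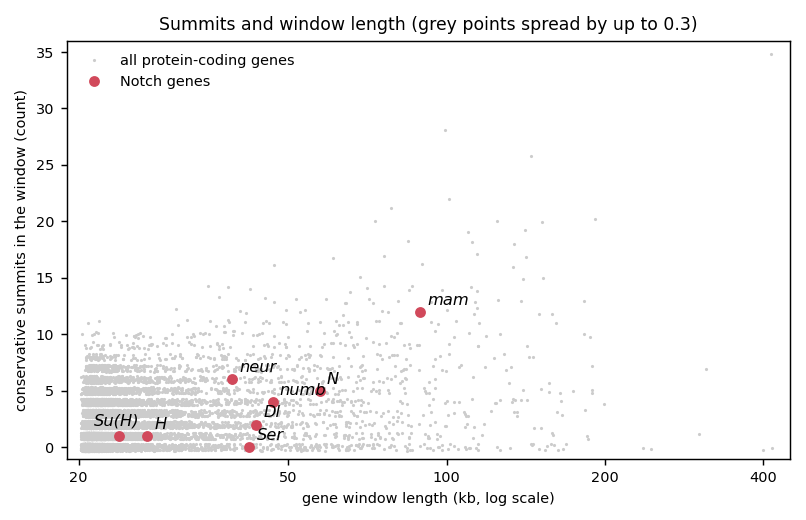
Conservative summits per gene window (count) against window length (kb, log scale) for all protein-coding genes, shown as grey points spread vertically by up to 0.3, and for the 8 Notch genes in red. The red points of mam at 12 and neur at 6 lie high among grey points of like length, and Ser lies at 0.

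**Figure D3:**
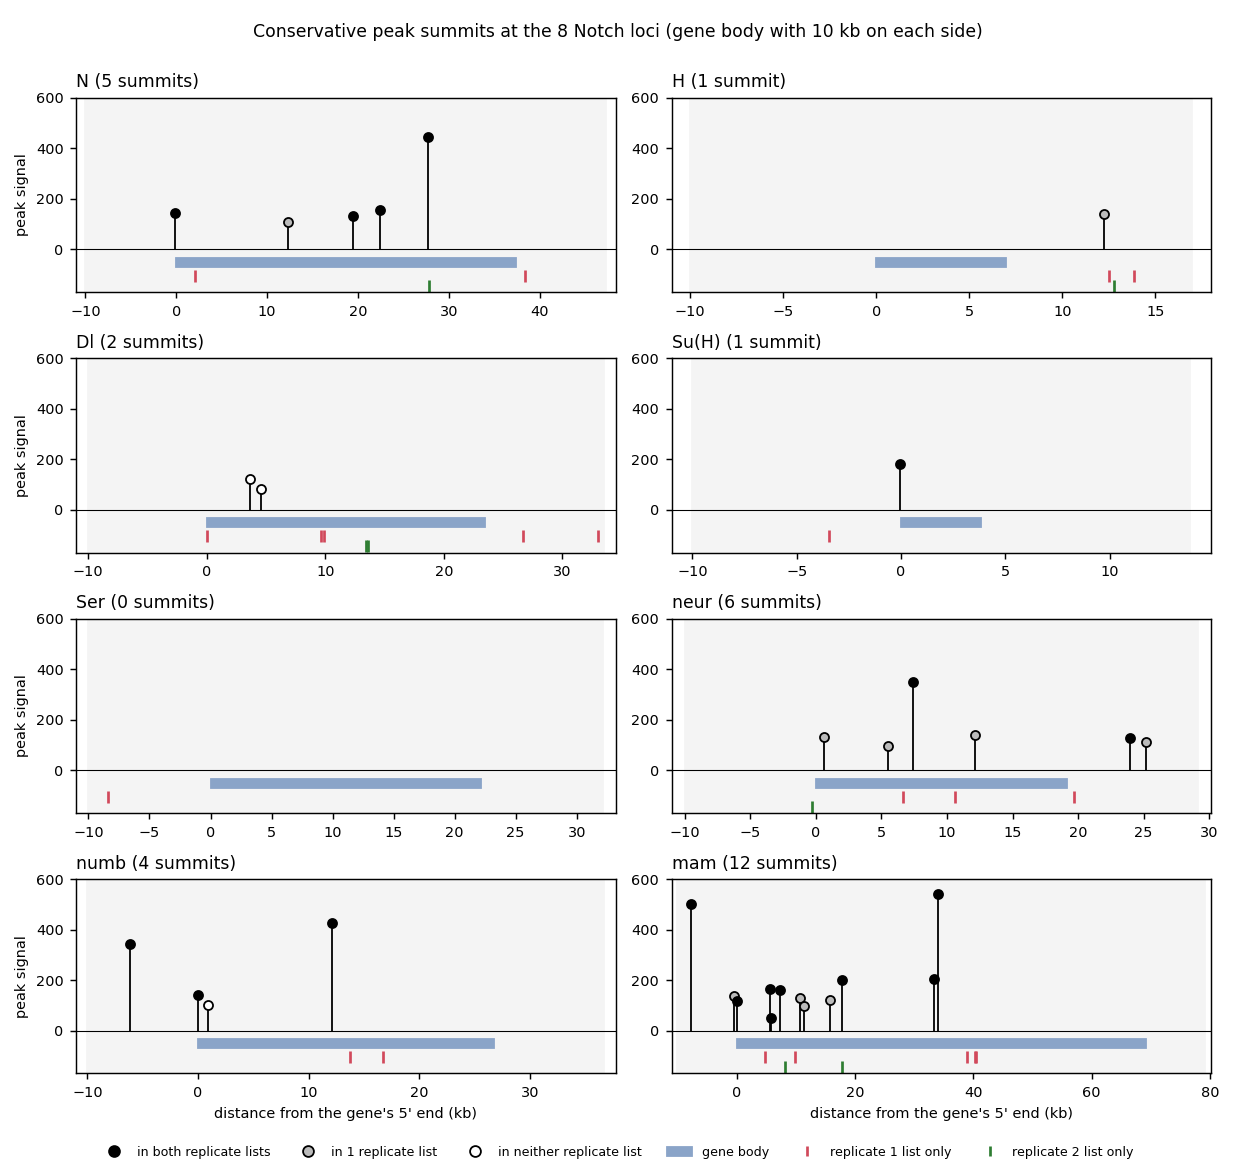
Conservative summits along each Notch locus, with distance from the gene's 5' end (kb, along the direction of transcription) on the x axis and the authors' peak signal on the y axis. The blue bar is the gene body, and the fill of each point shows in how many replicate lists a peak overlapped it. Red and green ticks below are summits of a replicate list with no conservative summit within 100 bp. The highest points lie in introns of N, neur and mam and at the inner start of numb. Points of like height lie upstream of mam and numb, at the starts of neighbouring genes, and Ser has no point.

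The receptor gene N (FBgn0004647, dm6 X:3134870-3172221, plus strand) had 1 summit at its promoter and 4 in introns. The promoter summit lay 101 bp upstream of the single annotated transcription start site (TSS), in a peak at X:3134571-3134966. Its signal, the authors' value per peak, was 143.5 and ranked 4068 of 8309. It ranked 4624 among the 73622 ranked peaks of replicate 1 and 4795 among the 90260 of replicate 2, so the replicates placed it alike.

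The peak of highest signal at N lay in intron 5 of 8, at X:3162392-3162675, 27.67 kb from the 5' end. Its signal was 443.9, rank 565, with rank 466 in replicate 1 and 995 in replicate 2. The octamer-bearing peak in intron 4 (X:3157171-3157356, 22.39 kb) had a signal of 155.9, rank 3616, with ranks 3232 and 5343 in the replicates. Both intronic peaks, and that in intron 2 (19.43 kb, signal 133.2), were in both replicates' lists. The summit in intron 1 at 12.35 kb had the lowest signal of the 5, 107.7, and was in the list of replicate 1 but not in that of replicate 2. Lists were cut by the irreproducible discovery rate (IDR), which is low where repeated rankings place a peak alike. Its −log10 at this summit was 2.09 in replicate 1 and 1.90 in replicate 2, on either side of the threshold of 2.

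Of the ligand genes, Dl (FBgn0000463, listed as Delta in the annotation, dm6 3R:19302731-19326217, minus strand) had 2 conservative summits, both in intron 1 of 5. The first, 3.64 kb from the 5' end at 3R:19322377-19322772, carried the octamer and GTGGGAA and had a signal of 120.2, rank 5195. It ranked 6132 in replicate 1 and 7498 in replicate 2, and in neither did it pass the threshold, with −log10 IDR of 1.35 and 1.71. The second, at 4.54 kb (3R:19321475-19321870), had a signal of 83.4, rank 7470. It ranked 10235 in replicate 1 and had no summit within 100 bp in replicate 2. Both Dl peaks were thus absent from both replicates' own lists, which was so for 618 of all 8309 conservative peaks.

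The Dl promoter differed between the replicates. Replicate 1 had a peak at 3R:19326016-19326415 with its summit 1 bp from the Dl TSS, a signal of 127.6 and rank 2202 of 9050 in its list. No summit lay within 100 bp of it in the ranked list of replicate 2 or in the ranked list behind the conservative one. Replicate 2 in turn had 2 summits in a Dl intron, 13.62 and 13.42 kb from the 5' end, with signals of 43.2 and 5.62. The ranked list of replicate 1 had a summit within 100 bp of the first, at rank 14426 with −log10 IDR of 0.88. The ranked list behind the conservative one had it with 1.88. Replicate 1 had none within 100 bp of the second. The lists of the replicates cut at the threshold thus had no summit in common at Dl, and both conservative summits ranked in the lower part of their list.

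Ser (FBgn0004197, dm6 3R:27172090-27194267, minus strand) had no conservative summit, as did 13.6% of the 376 genes of like window length. Ranked peaks were present at the locus, 58 in the ranked list behind the conservative one, 53 in replicate 1 and 43 in replicate 2. The highest −log10 IDR among them was 1.96, 2.05 and 1.26, so that 1 peak in replicate 1 passed. That peak lay 8.37 kb upstream of the gene and ranked 10082 in replicate 1 and 19132 in replicate 2. The broader list placed a summit there too, with a signal of 68.8, another 25 bp from a Ser TSS with a signal of 88.0, and another at 1.86 kb in an intron with the octamer and a signal of 69.0. The peaks at Ser were thus under the threshold of the conservative list, and binding there was shown neither to be present nor to be absent.

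Of the regulators that lower Notch activity, numb (FBgn0002973, dm6 2L:9437469-9464184, plus strand) had 4 summits. Its highest-signal peak, at 2L:9449454-9449745, lay 261 bp from the inner of 2 numb start sites, 12.1 kb from the 5' end. The signal was 426.5, rank 618, with ranks 553 and 579 in the replicates. The first numb start site had a summit 39 bp upstream of it with a signal of 139.6, rank 4215 (3977 in replicate 1 and 5279 in replicate 2), and repeats of GAGAGAG, the word bound by GAGA factor. Both start sites of numb thus had a peak in both replicates, and the inner one ranked higher in each.

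Of the other 2 numb summits, 1 was at the start of neighbouring genes. This summit, with a signal of 343.5 and rank 932, was 6.11 kb upstream of numb and 49 bp from the TSS of scat, a gene of vesicle tethering, with FucTB also starting within 500 bp. The other, 0.91 kb into the first intron of a numb transcript, had a signal of 103.1 and was in neither replicate's list.

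H (FBgn0001169, dm6 3R:20621938-20628915, plus strand), the adaptor that brings corepressors to Su(H), had 1 summit and none in its gene body. That summit lay 5.24 kb beyond the 3' end of H and in the 5' UTR of Pi3K92E, the catalytic subunit of a phosphoinositide kinase, 572 bp from that gene's TSS. Its signal was 140.9, rank 4169, with rank 3917 in replicate 1 and 6590 in replicate 2, where it did not pass the threshold. None of the 4 lists cut at the threshold had a summit in the H gene body, and the count of 1 rests on the window of 10 kb.

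Su(H) (FBgn0004837, dm6 2L:15039488-15043334, plus strand), the DNA-binding factor of the pathway, had 1 summit, and it lay at the gene's own promoter. The summit was 42 bp upstream of the TSS, in a peak at 2L:15039248-15039643. Its signal was 180.9, rank 2820, with rank 3925 in replicate 1 and 2576 in replicate 2, and both replicates' lists held it. The broader list lacked it, and its single Su(H) summit was another peak, 0.62 kb upstream with a signal of 53.9. Of the 31 conservative summits at the loci, 3 had no summit of the broader list within 100 bp, this 1 and 2 at mam, as did 7.35% of all conservative summits. Replicate 1 alone had a further summit 3.43 kb upstream, with the octamer and a signal of 85.1.

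The ubiquitin ligase gene neur (FBgn0002932, dm6 3R:9020348-9039471, minus strand) had 6 summits, of which 4 lay in its body. Among these conservative peaks, that of highest signal was in an intron, 7.44 kb from the 5' end at 3R:9031923-9032121 and 1.7 kb from the inner neur start site. Its signal was 351.2, rank 898, with ranks of 952 and 947 in the replicates, which placed it almost equally. A second intronic summit at 12.16 kb had a signal of 137.8 and was in the list of replicate 1 only. The inner start site itself had a summit 261 bp away with a signal of 97.0 and 2 TAATTA words, which replicate 2 did not have.

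The other 3 neur summits lay at the starts of neighbouring genes. The summit nearest to the 5' end of neur, 611 bp inside it, lay 100 bp from the TSS of hyx, a subunit of the Paf1 transcription complex. It held GTGGGAA, had a signal of 129.6 and ranked 8931 in replicate 1 against 2975 in replicate 2. Beyond the 3' end, summits lay 73 bp from the TSS of Kcmf1 (signal 112.0, held by the list of replicate 2) and 48 bp from that of CG11986 (signal 126.6, in both lists). Replicate 2 also had a summit 0.26 kb upstream of the neur 5' end with a signal of 58.9, for which replicate 1 had none within 100 bp. Of the 6 conservative peaks, 2 were in both replicates' lists, 2 in that of replicate 1 alone and 2 in that of replicate 2 alone.

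The coactivator gene mam (FBgn0002643, dm6 2R:13991203-14060356, plus strand) had 12 summits, of which 10 lay in the gene body. Of its 12 peaks, 8 overlapped a peak in both replicates' lists, and 7 had a summit within 100 bp in both. Its highest-signal peak, at 2R:14024991-14025312, lay 33.96 kb from the 5' end in intron 2 of the transcript mam-RD and carried the octamer, centred 43 bp from the summit. The signal was 542.2, rank 380, with ranks 351 and 420 in the replicates. A neighbouring summit at 33.34 kb had a signal of 203.1 and ranked 2604 and 2041. The nearest TSS to both was that of CG18371, 3453 bp from the highest-signal summit and 4073 bp from its neighbour. The nearest mam TSS was 6496 and 7116 bp away. These summits were the conservative ones farthest into the gene, which is 69.15 kb long. The broader list added 6 from 38.96 to 53.12 kb, with signals from 40.1 to 102.9.

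A group of 6 mam summits lay between 5.59 and 15.76 kb, in intron 2 of mam-RA. Their signals ran from 51.0 to 163.1, and 3 of the 6 peaks overlapped a peak in both replicates' lists. The lowest of them overlapped its neighbour, whose summit was 199 bp away, and neither replicate's list had a summit within 100 bp of it. It thus counts as shared through the neighbour's peak alone. With overlapping peaks counted once, the loci held 30 summits. Near start sites, mam had a summit 264 bp from an inner TSS (signal 199.6, in both lists), and 127 bp from its first TSS (signal 116.0, in both lists, with ATGCTAAT). A further summit 0.42 kb upstream was 79 bp from the TSS of RN-tre, a gene for a Rab GTPase-activating protein, and ranked 12418 in replicate 1 against 1883 in replicate 2. The summit 7.71 kb upstream, with a signal of 502.4 and rank 444, lay 94 bp from the TSS of CG8067 and near that of Ctf4. The 3 genes of like window length with the most similar count were px with 12, toc with 11 and Fas3 with 13.

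Across the loci, 13 of 31 summits lay within 500 bp of a TSS, or 41.9% (Wilson 95% interval 26.4 to 59.2), against 45.9% of all conservative summits. Of these 13, 8 were near a start site of the member gene itself and 5 near other genes alone. Introns held 17 of 31, or 54.8% (37.8 to 70.8), against 36.2% of all summits, just under the interval. No summit was intergenic, which with 31 summits allows up to 11.0%, against 14.9% of all summits. Such an interval reflects counting error alone, since peaks of 1 experiment do not replicate it. The loci were drawn around gene bodies, which held 22 of the 31 summits, whereas the list of all summits includes those far from genes. The window itself thus favours introns over intergenic sequence, and a preference of these genes for either was not tested. In 17 of 31 cases the nearest TSS of the member gene was over 5 kb away, and in 15 it was the nearest TSS of any gene.

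In signal and in sharing between replicates, the values for the loci lay near those of all peaks. Signals at the 31 summits ran from 51.0 to 542.2 with a median of 137.8, and the median of all 8309 peaks was 141.3. With the list split by signal into 4 equal groups from high to low, the loci held 6, 7, 13 and 5 summits. Both replicates' lists overlapped 18 of the 31 peaks, or 58.1% (40.8 to 73.6), against 62.4% of all peaks. A summit within 100 bp in both lists was found for 17 of 31. Another 7 were in the list of replicate 1 alone, 3 in that of replicate 2 alone and 3 in neither. In the ranked lists 27 of 31 had a summit within 100 bp in both replicates, 87.1% against 87.8% of all peaks. The 6 summits with the highest signal, at mam, N, numb and neur and upstream of mam and numb, were in both lists.

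**Figure D4:**
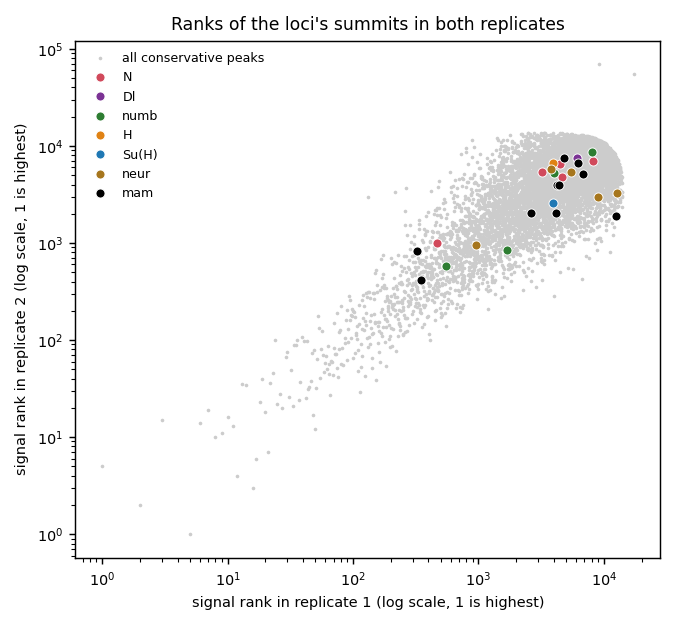
Signal rank in replicate 1 (x axis) against replicate 2 (y axis), both on log scales with 1 as the highest signal, for conservative peaks with a summit within 100 bp in both ranked lists. Grey points are all such peaks and coloured points are the 27 of 31 at Notch loci; the points of highest rank, at mam, N, numb and neur, lie in the narrow part of the cloud, and the weaker ones spread more widely.

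Of the 15 words searched on both strands within 100 bp of summits, the octamer was found at 3 of 31, or 9.68% (3.35 to 24.9), against 6.68% of all conservative summits. Flanking windows of the same length were centred 1000 bp to either side and were free of conservative peaks, though not of peaks in other lists. The octamer was found in 4 of 56 of them at the loci, 7.14%, and in 3.28% of 14991 around all summits. The 3 summits lay in introns of N, Dl and mam. Any of the 4 POU words, which overlap each other, was found at 6 of 31 summits, 19.4% (9.19 to 36.3), against 14.9% of all. Either Su(H) word was found at 3, 9.68% against 4.68%, and in 0 of 56 flanking windows, against 4.43% of the flanking windows of all summits. With 31 summits the intervals include the values of all summits, so at this number no difference in these words was detectable.

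The octamer was found at a higher share of the loci's summits in replicate 1 than in replicate 2, but the intervals overlapped. In the list of replicate 1 it was found at 9 of 45 summits of the loci, 20% (10.9 to 33.8), against 8.4% of that whole list, which lies under the interval. In the list of replicate 2 it was found at 2 of 27, 7.41% (2.06 to 23.4), against 5.44%. In the broader list, made from both replicates, it was found at 8 of 52, 15.4% (8.01 to 27.5). The share of that whole list was 7.14%, also under the interval. These lists share peaks, and a difference between them was not tested. Of the 9 in replicate 1, 7 had no conservative summit within 100 bp, and 3 of these were at Dl. The remaining words were seen at few summits. TAATTA was found at 4 of 31 (15.6% of all summits), CAGCTG at 3 (9.89%), CATATG at 2 (7.35%), and TATCGATA, GGTCACAC and GAGAGAG at 1 each (3.80%, 3.02% and 5.98%). The Zelda word CAGGTAG, ATGCATAT and the rearranged octamers AACATGTA and TAAACGTA were at 0 of 31, against 0.746%, 2.56%, 0.915% and 0.722% of all summits.

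Other genes of the pathway were widely associated with peaks. Of 41 matched genes, 38 had a conservative summit within 10 kb, or 92.7%, with 132 gene-summit pairs in which a summit near several genes counts for each. The share over all protein-coding genes was 74%, and the mean share over genes of like window length was 77.0%. Every matched gene had a summit in the groups of glycosylation (4 genes), receptor and ligand cleavage (7), ligand endocytosis (3), receptor trafficking (5), nuclear cofactors (7) and targets (4). The symbol lgd, also of receptor trafficking, was not matched and is not counted. In the Bearded family it was 3 of 4, in asymmetric division 4 of 5 and among the others 1 of 2, with none at BobA, pon and bnb. Counting the gene bodies alone, 12 of the 41 had a summit, against 17.4% of all protein-coding genes counted in that way.

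The 6 pathway genes with the highest best peaks had it at promoters, in most cases those of neighbours. The peak of O-fut1, which adds fucose to the receptor (signal 847.9, rank 151), was nearest to the TSS of CG13018. That of gro, the corepressor that H recruits (signal 846.6, rank 152), was at gro itself and was also the best peak of the target E(spl)m8-HLH. For Fur2, a furin protease (signal 618.9), the nearest TSS was that of TH1, and for the gamma-secretase gene aph-1 (signal 557.5) that of HemK2. For nej, the acetyltransferase CBP (signal 593.3), it was that of a long non-coding RNA. A shared peak at Brd (signal 221.8, rank 2020) was the best of Tom, Brd and Ocho.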

How the data were processed

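Chromatin immunoprecipitation sequencing gave 8 deposited peak lists in dm6, 4 thresholded and 4 ranked, with 1 list of each kind per replicate and 2 of each kind made from both replicates. Sonication gave fragments of 200 to 800 bp, per the labels. The aligner, the caller and the scaling of the signal were not given in the sources used here. Each deposited peak carries the authors' signal, a score capped at 1000 and a summit. In ranked lists the authors added −log10 of the irreproducible discovery rate. The deposited thresholded lists hold peaks with a score of 830 or more and −log10 of 2 or more, a rate of 0.01 or less. Signals ranked peaks within a list and were not compared between lists. The lists carry no read counts, so the depth per sample is unknown and its effect on the number of peaks cannot be given.

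The conservative list held 8309 peaks, the broader list 11692, replicate 1 9050 and replicate 2 7098. Of 8493 ranked peaks at the threshold, 184 are not in the conservative list, 115 of them on 3R.

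Genes came from Ensembl release 115 without transposable elements, matched by identifier, and all 8 members were found. Of 42 other pathway symbols 41 matched. Each summit had 1 class: promoter if within 500 bp of any TSS, otherwise UTR, then exon, then intron, then intergenic. A peak was in a replicate's list where it overlapped a peak there by 1 bp or more, and replicate ranks and rates were read at the closest summit, at most 100 bp away, of that replicate's ranked list. Words were counted on either strand up to 100 bp from a summit. Genes of like length have windows within 10% of the member's. The text names all members, up to 6 pathway genes by best signal, and the 3 genes of like length closest to mam in count. Neighbouring genes with the nearest TSS are named at promoter and UTR summits, and at the intronic mam summits nearest to CG18371. The shared best peak of the Bearded genes and all genes with no summit were named after their values were seen. Members, lists and words were chosen with earlier results of these data known. With 1 group no test between groups was possible, and shares carry Wilson 95% intervals. Alternatives are given with their effects under the dependence on processing. Python 3.11.15, pandas 2.3.3, numpy 2.4.6, scipy 1.17.1 and matplotlib 3.10.9 were used, and the counting was tested on simulated data.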

Additional observations from a re-analysis of the deposited data

Results flagged for a closer look

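In the window of neur, 2 ranked peaks that passed the irreproducible discovery rate threshold were in none of the thresholded lists, and no result above uses them. They were flagged for this absence alone, and why the thresholded lists lack them is not known. The stronger, at 3R:9047624-9047929, overlapped the genes Nmdmc and Rel, 54 bp from a TSS and 8.3 kb upstream of neur. Rel encodes the NF-kappaB factor Relish. Its signal was 391.0, rank 745 in the ranked list, with −log10 of the rate 4.97, and it carried the octamer. It ranked 557 in replicate 1 and 1891 in replicate 2. The other, 8.9 kb upstream at Nmdmc, had a signal of 133.9, rank 4719, and −log10 of 2.36. With them neur would have 8 summits and the loci 33. The stronger would then be the highest-signal peak of neur, above the conservative peak with a signal of 351.2.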

How the results depend on the processing

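The number of summits in the loci, 31, became 52 in the broader list and 13 among peaks above the median signal. Leaving out a replicate gave 27 to 45 summits. The median share of peaks with lower signal, 48.3%, was 40.3% in the broader list, 43.9% among peaks above the median signal and 44.5% for gene bodies alone, and 45.6% to 48.6% with a replicate left out. With gene bodies alone, the promoter share fell from 41.9% to 22.7% and the pathway genes with a summit from 38 to 12. The other 37 values for the main results kept within their spread or within 1.5 times of the count, and the octamer share ran from 6.45% within 50 bp of the summit to 20% in replicate 1. For single genes 54 values kept in this sense and 18 moved further. In the ranked list at the threshold the loci held 33 summits, and with overlapping peaks counted once 30; both were chosen after seeing the data. No paired analysis was possible because there was 1 group. The loci hold 31 peaks in 2 replicates with no control used here, depth is unknown, and a peak near several genes cannot be assigned to any of them.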
